A study of Mus musculus with 21 samples.

Results

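Thrombospondins, tenascins and related matricellular proteins were followed here as 9 genes, Thbs1, Thbs2, Thbs3, Thbs4, Tnc, Tnr, Spp1, Sparc and Sparcl1. They were taken by gene symbol from 2 RNA-seq tables, where each of the 9 was listed once, among 33829 genes in the first table and 55385 in the second. The set was chosen from measured values of these same samples: Thbs1 and Tnc varied widely between mice given irisin after MPTP, so their levels in that group are given as a description without a test.

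Midbrain RNA of 21 male C57BL/6 mice, aged 6 weeks, was measured in 7 groups of 3. MPTP is a toxin that injures dopaminergic neurons and is used to model Parkinson's disease, and irisin, here recombinant and injected into the abdomen, is a hormone released by muscle during exercise. In the pre-treatment experiment, controls received ddH2O for 10 days, the MPTP group received ddH2O for 5 days and then MPTP at 30 mg/kg per day for 5 days, and the third group received irisin at 200 µg/kg per day for 5 days before the same MPTP course. In the delayed experiment there were 4 groups: ddH2O for 10 days (control), ddH2O for 5 days then irisin for 5 days (irisin alone), MPTP for 5 days then ddH2O for 5 days (MPTP), and MPTP for 5 days then irisin for 5 days (MPTP then irisin). MPTP was therefore the most recent treatment in the first experiment, whereas 5 further days followed it in the second. No group carried a transgene or a deletion, and the tissue was a whole dissected piece rather than sorted cells.

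Matricellular proteins are secreted into the extracellular matrix, where they act mainly as signals to cells and less as building material. Thrombospondins from astrocytes promote the formation of synapses, Sparcl1 (hevin) does likewise and Sparc opposes it, tenascin-R is a component of the perineuronal nets around neurons, and tenascin-C is abundant in the developing and the injured brain. Osteopontin, the product of Spp1, binds integrins and CD44 and is made by activated microglia and by some brainstem neurons.

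Binding to integrins through the tripeptide Arg-Gly-Asp is a trait that some of these otherwise unlike proteins share, so its coding bases are shown to place the members by structure. In the longest complete coding sequence of each gene (GENCODE M21, GRCm38), 4 of the 9 members held codons for Arg-Gly-Asp: Thbs1, Thbs2, Thbs4 and Spp1. Each stretch below has 27 bases, written 5′ to 3′ on the coding strand, with the 3 codons in capitals.
Thbs1: ggtgatggcCGAGGTGACgcctgcaaa
Thbs2: ggtgacggcCGAGGTGACatttgtaaa
Thbs4: ggggatgggAGAGGAGACgcctgtgat
Spp1: cccaacggcCGAGGTGATagcttggct

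The Thbs1 stretch lay in coding sequence at chr2:118122680-118122899 (+ strand) and ran across the junction of exons 17 and 18 of 22, with its arginine as codon 927 of 1171. The Thbs2 stretch lay at chr17:14671475-14673144 (− strand), across the same pair of exon numbers, with arginine as codon 928 of 1172. The Spp1 stretch lay within exon 7 of 8, at chr5:104439472-104439498 (+ strand). Thbs4 held 2 such sites, of which the one shown lay within exon 13 at chr13:92762779-92762805 (− strand) and the other lay in exon 3. The longest coding sequences of Thbs3, Tnc, Tnr, Sparc and Sparcl1 held none in frame.

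Despite the likeness within the family, the genes could be told apart by sequence. The longest run of bases shared by transcripts of any of the 36 pairs of members was 26 bases, between Thbs1 and Thbs2, and the next was 21 bases, between Thbs2 and Thbs3. Several members overlapped another annotated gene: Thbs3 overlapped Mtx1, Tnc overlapped 8030451A03Rik, Thbs1 overlapped Gm29233 and Sparcl1 overlapped Gm26703, each on the opposite strand. Whether counting used the strand is not given in the sources used here, so reads from such partners cannot be told apart from those of the member.

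The total count per library ranged from 66653781 to 75637604 over the 9 pre-treatment mice, and from 48843585 to 77203445 over the 12 mice of the delayed experiment. All 7 dopaminergic neuron markers examined were detected, as was every astrocyte, microglia and oligodendrocyte marker used. The 6 choroid plexus markers, among them Ttr, varied most between libraries, with summed FPKM from 3.69 to 1192 in the first experiment and from 21.5 to 1179 in the second, and none was at 0 in all mice.

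Per unit of length, Sparcl1 was the most abundant member, followed by Sparc, Spp1 and Tnr, in both experiments. FPKM, fragments scaled by gene length and library size, ranged over the 12 mice of the delayed experiment from 1078 to 1150 for Sparcl1, from 315.8 to 388.7 for Sparc, from 68.7 to 106.7 for Spp1 and from 8.26 to 12.4 for Tnr. These 4 ranges did not overlap, and each of the other 5 genes lay below Tnr in every mouse. Over the 9 mice of the pre-treatment experiment the same 4 genes led, with median FPKM of 1162, 349.4, 64.2 and 11.9.

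Below these genes the order differed between experiments. Among pre-treatment mice Thbs2, with a median of 1.46 FPKM, and Thbs3, with 1.30, overlapped in range, and Thbs1 (0.604) and Tnc (0.515) overlapped with each other below them. Thbs4 was lowest, from 0.0438 to 0.324 FPKM, and did not reach the lowest Tnc value of 0.400. Among delayed mice Thbs1 spanned 0.558 to 6.26 FPKM and Tnc 0.390 to 3.06, and both overlapped with Thbs2 and Thbs3. Thbs2, from 1.58 to 2.48 FPKM, lay above Thbs3, from 0.637 to 1.15, in every mouse. Thbs4 was again lowest in the median, and its highest value, 0.474 FPKM, overlapped with Tnc but not with Thbs1. The 2 experiments were normalised separately, so levels were not tested across them.

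**Figure D1:**
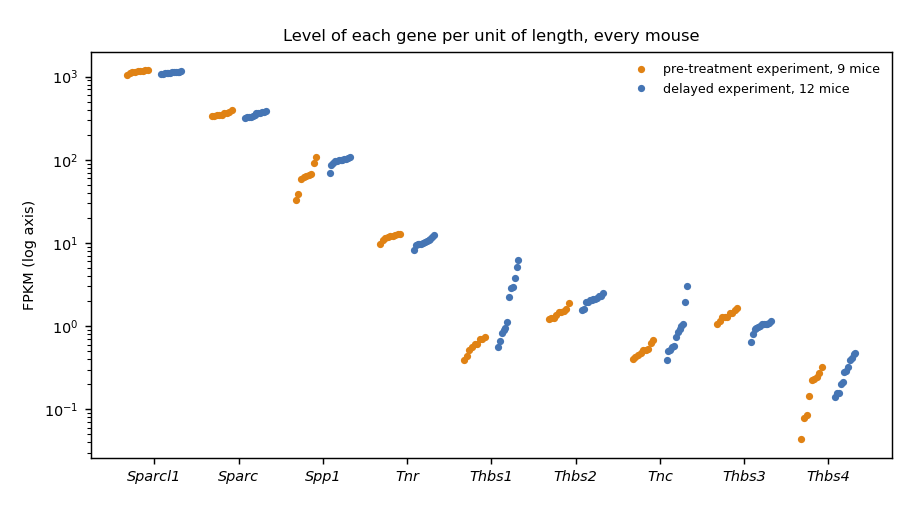
FPKM (log axis) of each of the 9 genes, with 1 point per mouse, in the pre-treatment experiment (orange, 9 mice) and the delayed experiment (blue, 12 mice). Sparcl1, Sparc, Spp1 and Tnr form 4 separate levels, and Thbs1 and Tnc spread widely in the delayed experiment.

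Thbs1 encodes thrombospondin-1, which releases TGF-beta from its latent form and, through CD47 and CD36, restrains blood vessel growth. It was low in the pre-treatment experiment. Its CPM, counts relative to library size, scaled by TMM (a factor that evens out library composition), was 4.15, 2.74 and 4.95 in controls 1 to 3, 4.75, 3.54 and 4.78 in MPTP mice, and 3.01, 3.84 and 4.11 in mice given irisin before MPTP. The 3 groups overlapped. Within groups the SD of log2 CPM of Thbs1 was 0.434 in controls, 0.246 in MPTP mice and 0.232 in mice given irisin first. The medians over all tested genes were 0.238, 0.211 and 0.184.

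Thbs1 in the delayed experiment differed between mice of one group by far more. Controls had 5.69, 6.16 and 19.7 CPM, mice given irisin alone had 15.3, 34.5 and 20.6, MPTP mice had 4.52, 3.80 and 7.67, and mice given MPTP then irisin had 6.52, 43.0 and 25.8. One control, all 3 mice given irisin alone and 2 of the 3 given MPTP then irisin had 15.3 CPM or more, and the other 6 had 7.67 or less. These values rest on 275 to 2192 counts per mouse. The group means were 10.5 ± 7.96 (SD, n = 3) for controls, 23.5 ± 9.94 for irisin alone, 5.33 ± 2.06 for MPTP and 25.1 ± 18.2 for MPTP then irisin.

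Tenascin-C, an antiadhesive protein of developing and injured tissue, was likewise low in the pre-treatment experiment. Tnc had 5.46, 3.88 and 4.58 CPM in controls, 5.96, 4.48 and 3.53 in MPTP mice, and 3.95, 4.22 and 4.52 after irisin and MPTP. With delayed treatment it had 4.93, 3.45 and 7.58 CPM in controls, 16.9, 6.36 and 8.13 with irisin alone, 4.37, 4.96 and 4.45 with MPTP, and 8.72, 9.28 and 26.9 with MPTP then irisin.

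High Tnc and high Thbs1 coincided in some mice and not in others. Mouse 3 of MPTP then irisin had the highest Tnc of the experiment and 25.8 CPM of Thbs1, among the higher Thbs1 values. Mouse 1 of irisin alone had the second highest Tnc of the experiment and the lowest Thbs1 of its group, and mouse 2 of MPTP then irisin had the highest Thbs1 but 9.28 CPM of Tnc. As within-group deviations of log2 CPM, the 2 genes gave r = 0.182 over the 12 delayed mice, a description only, since the spread there chose them. In the 9 pre-treatment mice, which that choice did not use, Pearson's r was 0.377 (exact permutation within groups, two-sided p = 0.380) and Spearman's rho was 0.333 (exact permutation p = 0.472). Without the 2 mice farthest from the median of Thbs1, r was -0.0974 (exact permutation p = 0.958), so no relation was detected. This was 1 relation, with no adjustment.

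**Figure D2:**
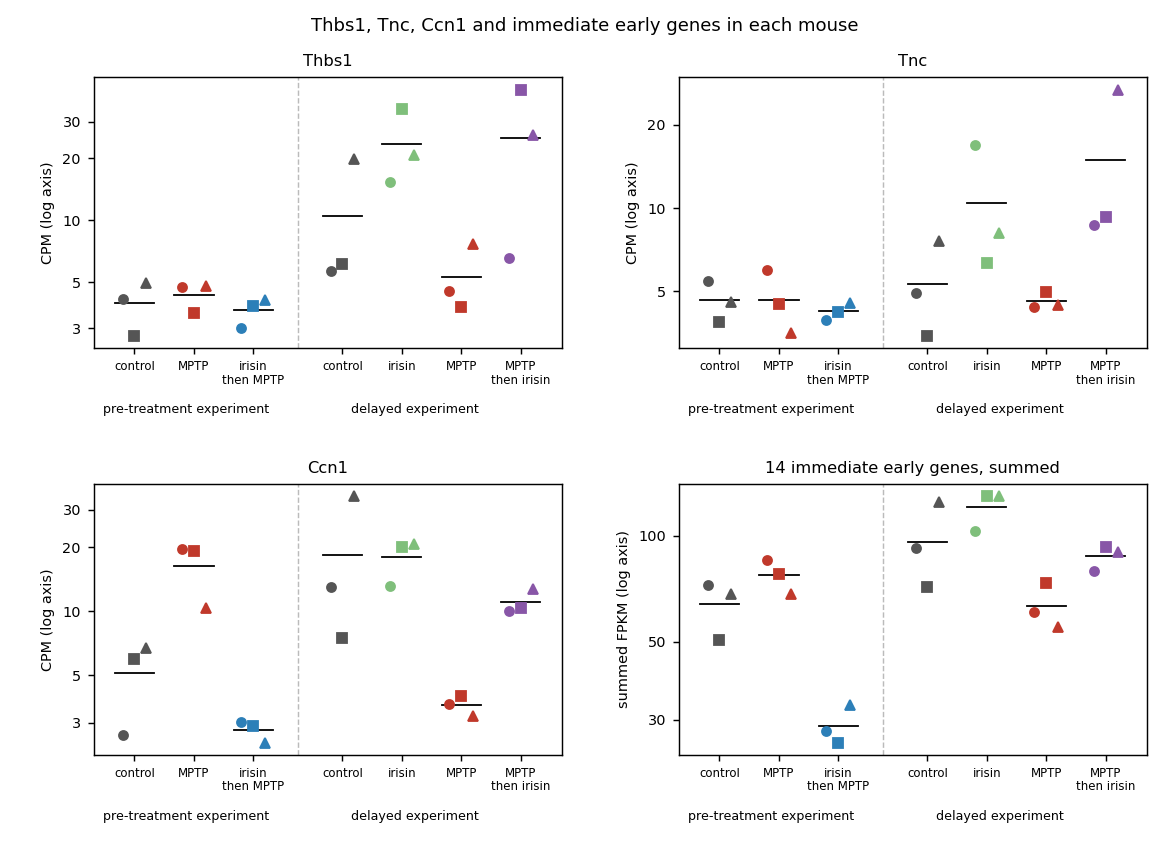
Thbs1, Tnc and Ccn1 in CPM and the summed FPKM of 14 immediate early genes (log axes), for each mouse of the 7 groups. Circles, squares and triangles are mice 1, 2 and 3, bars are group means, and the dashed line divides the experiments. Thbs1 lay between 2.74 and 4.95 CPM in the first experiment and between 3.80 and 43.0 in the second.

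Ccn1, another secreted matricellular protein that binds integrins and is induced quickly by serum and stretch, is shown beside them as a relative from the list of 17. It had 13.0, 7.48 and 34.7 CPM in controls, 13.2, 20.1 and 20.7 with irisin alone, 3.67, 3.99 and 3.23 with MPTP, and 9.98, 10.3 and 12.7 with MPTP then irisin. The control with the highest Thbs1, mouse 3, also had the highest Ccn1 of the experiment, and the MPTP group had the lowest mean of both genes. Immediate early genes, which neurons and vessels switch on within minutes of a stimulus, were measured as a list of 14. Their summed FPKM ran from 71.6 to 124.3 in controls, from 103.4 to 129.4 with irisin alone, from 55.1 to 73.4 with MPTP and from 79.4 to 92.5 with MPTP then irisin, and none of the 14 was at 0 in all mice. Their part in the Thbs1 values was not tested.

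Choroid plexus RNA varied within these groups too. The summed FPKM of its 6 markers was 37.7 to 204.9 with irisin alone and 118.1 to 1179 with MPTP then irisin, against 21.5 to 1110 with MPTP. Mouse 2 of MPTP then irisin, with the highest Thbs1, had the highest choroid plexus sum of the delayed mice. It also had the highest sum of the 7 blood and platelet markers, 1025 FPKM, beside 456.4 and 491.7 in its group and at most 711.9 in any other delayed mouse. Mouse 2 of irisin alone, with the second highest Thbs1, had sums of 44.7 for choroid plexus and 623.4 for blood. The 7 fibroblast markers summed to 16.7, 31.8 and 39.1 FPKM in mice 1 to 3 of MPTP then irisin. The lowest sum was in mouse 1, which had the lowest Thbs1 of that group. With irisin alone the fibroblast sums were 31.1, 30.3 and 23.2, in an order unlike that of Thbs1. None of these markers was at 0 in all mice, and the part of these tissues in the Thbs1 values was not tested.

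The first question of the design is what MPTP itself changed. In the pre-treatment experiment 0 of the 9 members passed an adjusted p of 0.05 (edgeR quasi-likelihood test, Benjamini-Hochberg over all genes), where 0.0221% of all tested genes did, and 0 passed an unadjusted p of 0.05, where 6.03% of all genes did. By DESeq2, which called more genes than edgeR in every comparison (counts in the last section), the members passing were also 0. Log2 fold changes ran from -0.10 for Sparc to 0.33 for Thbs4, with a median of 0.04 beside -0.0018 over all genes tested. Sparc was the 1 member whose groups did not overlap, against 11.6% of all genes.

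In the delayed experiment every MPTP mouse had less Sparc than every control. Sparc, a collagen-binding protein made by microglia and other glia and by vessels that opposes the synapse-forming action of Sparcl1, had 1624, 1668 and 1620 CPM in controls and 1459, 1337 and 1399 in MPTP mice. The means were 1637 ± 26.9 and 1398 ± 61.1 (SD, n = 3 each). The log2 fold change was -0.23 (SE 0.0404, edgeR adjusted p = 0.0841), which did not pass the threshold. With DESeq2 the adjusted p was 0.00919, and over the 12 alternatives it ran from 0.00919 to 0.315. In bulk tissue, fewer cells of a type and less RNA per cell cannot be told apart.

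The other groups of the delayed experiment had intermediate or similar Sparc. Mice given irisin alone had 1558, 1521 and 1576 CPM, below every control, and mice given MPTP then irisin had 1376, 1412 and 1452. All 6 mice that had received MPTP therefore lay between 1337 and 1459, all 3 given irisin alone between 1521 and 1576, and all 3 controls between 1620 and 1668. In the pre-treatment experiment Sparc had 1536, 1514 and 1647 CPM in controls and 1451, 1436 and 1503 in MPTP mice, again without overlap and in the same direction. That difference was a log2 fold change of -0.10 with a 95% interval from -0.22 to 0.02. Mice given irisin before MPTP had 1467, 1615 and 1534.

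Markers of other cells were read beside Sparc. The 6 astrocyte markers summed to 649.1 to 743.0 FPKM in delayed controls and 667.2 to 683.7 in MPTP mice, the 6 microglia markers to 68.8 to 76.0 and 71.4 to 79.0, and the 5 endothelial markers to 52.7 to 64.8 and 54.2 to 59.5, so all 3 sums overlapped. Sums of other lists did separate these groups. The 7 dopaminergic neuron markers summed to 137.2 to 143.7 FPKM in controls and 91.2 to 118.9 in MPTP mice, without overlap, and 4 of the 7 were lower at an unadjusted p of 0.05. The 7 fibroblast markers, collagens among them, summed to 29.1 to 32.8 FPKM in controls and 33.3 to 39.1 in MPTP mice, also without overlap, and 1 of the 7, Lum, was higher at an unadjusted p of 0.05. Over all genes, 8.33% had such a p in either direction. Mitochondrial transcripts made up 8.48 to 9.50% of counts in controls and 7.65 to 7.80% in MPTP mice. None of these markers was at 0 in all mice. The choroid plexus sum was 162.2 to 1068 in controls and 21.5 to 1110 in MPTP mice. With irisin alone the dopaminergic sum, 128.2 to 129.8, lay below controls as well. In the pre-treatment experiment the 4 markers of oligodendrocyte precursors summed to 64.9 to 67.7 FPKM in controls and 60.5 to 64.5 in MPTP mice, without overlap. The part of these cells in the Sparc values was not tested.

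Tenascin-R had the higher values after MPTP. Tnr had 120.9, 136.3 and 142.8 CPM in delayed controls and 159.5, 158.0 and 151.4 in MPTP mice, so the groups did not overlap. The log2 fold change was 0.23 (SE 0.0999, edgeR adjusted p = 0.571), which did not pass. The pre-treatment values of Tnr were 172.4, 161.9 and 140.7 CPM in controls and 183.7, 167.6 and 179.8 in MPTP mice, which overlapped. Of 7 other net components, the lecticans that bind tenascin-R and the link proteins, 0 passed an unadjusted p of 0.05 with MPTP in either experiment.

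Sparc and Tnr were the 2 of 9 members with an unadjusted p under 0.05 for MPTP against control in the delayed experiment, where 8.33% of all genes had one. The groups of 3 members did not overlap, Tnr, Sparc and Spp1, against 16.2% of all genes. No member passed the adjusted threshold by edgeR, which 0.132% of all genes did. By DESeq2, which called more genes over the whole table (counts in the last section), the 1 member passing was Sparc. For the other 7 members log2 fold changes ran from -0.98 for Thbs1, with a 95% interval from -2.43 to 0.46, to 0.80 for Thbs4. All groups of the delayed experiment shared an estimate of spread per gene. The intervals and p-values of Thbs1 and Tnc there therefore rest in part on the spread that chose them, and serve as description.

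Osteopontin was steady in one experiment and not in the other. Spp1 had 187.0, 199.3 and 186.8 CPM in delayed controls, 185.7, 161.1 and 183.3 in MPTP mice, 180.9, 191.7 and 178.5 with irisin alone, and 126.3, 171.9 and 189.3 with MPTP then irisin. The lowest control lay just above the highest MPTP mouse, by less than the spread within either group. The pre-treatment values of Spp1 were 61.4, 174.5 and 108.2 CPM in controls, 71.4, 196.9 and 120.2 in MPTP mice, and 128.4, 122.5 and 113.5 after irisin and MPTP. The first 2 groups each spanned nearly the whole range of that experiment, and the third lay inside it.

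Spp1 is also expressed by motor neurons of the brainstem, so their markers were read beside it. The 5 motor neuron markers, Chat among them, summed to 8.21, 21.8 and 7.33 FPKM in pre-treatment controls 1 to 3, in which the highest Spp1 and the highest sum came from the same mouse. In the MPTP mice the sums were 11.9, 11.4 and 9.19, in an order unlike that of Spp1. The 4 oligodendrocyte markers Mbp, Mog, Mag and Mobp summed to 637.7, 922.0 and 668.2 FPKM in controls, 574.1, 781.4 and 707.0 in MPTP mice, and 760.6, 643.5 and 621.0 in mice given irisin first. This is the order of Spp1 within each of the 3 groups, and the 6 astrocyte markers had that order as well. The astrocyte sums were 429, 502 and 492 FPKM in controls and 442, 485 and 458 in MPTP mice. In mice given irisin first they were 468, 457 and 435. None of the markers of these 3 lists was at 0 in all mice, and their part in the Spp1 values was not tested.

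Sparcl1, the synapse-forming partner of Sparc made by astrocytes, varied little, as Sparc did. It lay between 3410 and 3912 CPM in the 9 pre-treatment mice and between 3577 and 3815 in the 12 delayed mice. Its log2 fold changes over the 6 comparisons of groups ran from -0.04 to 0.04, and the widest 95% interval ran from -0.17 to 0.11.

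**Figure D3:**
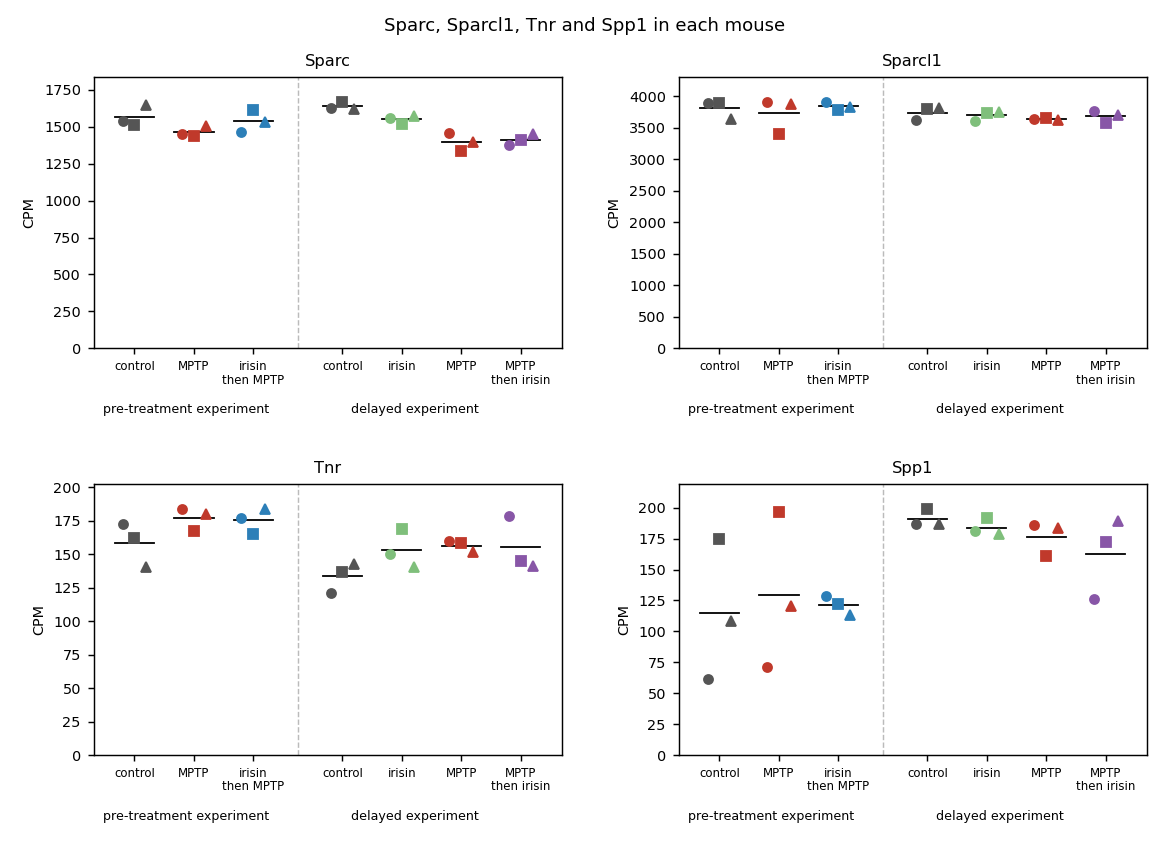
CPM of Sparc, Sparcl1, Tnr and Spp1 in each mouse of the 7 groups, on axes that start at 0. Circles, squares and triangles are mice 1, 2 and 3, and bars are group means. Delayed controls had 1620 to 1668 CPM of Sparc and delayed MPTP mice 1337 to 1459, and Spp1 spanned 61.4 to 196.9 CPM in the pre-treatment experiment.

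The second question is whether irisin given first alters the state after MPTP. Of the 9 members, 0 passed the adjusted and 0 the unadjusted threshold for irisin before MPTP against MPTP (edgeR), where 0.0707% and 6.22% of all genes did, and 0 passed by DESeq2. Against control the counts were likewise 0 and 0, where 0.0707% and 7.12% of all genes passed. Log2 fold changes against MPTP ran from -0.25 for Thbs1 to 0.89 for Thbs4, and against control from -0.13 for Tnc to 1.23 for Thbs4, with medians over the members of -0.01 and 0.01.

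Thbs4, a thrombospondin of tendon, muscle and sensory pathways, was close to the limit of what the depth could show. It had 0.835, 0.339 and 0.173 CPM in pre-treatment controls, 0.547, 0.845 and 0.306 in MPTP mice, and 0.932, 1.03 and 1.19 in mice given irisin before MPTP, which lay above all 6 others. These are 12 to 87 counts per mouse. The group given irisin first stood apart in other lists as well. Its blood markers summed to 271.9 to 548.0 FPKM, against 635.4 to 958.8 in controls and 650.4 to 981.0 in MPTP mice, and the 4 globin genes among them were lower at an unadjusted p of 0.05 in both comparisons. Its 5 mural markers summed to 35.8 to 37.9 FPKM, against 39.2 to 44.0 in controls and 38.2 to 42.7 in MPTP mice. Its 5 endothelial markers summed to 48.29 to 48.75 FPKM, above the 40.50 to 48.27 of controls and the 40.83 to 41.66 of MPTP mice. At an unadjusted p of 0.05 (edgeR), 2 of these 5 were higher and 2 lower against MPTP, and 1 was higher and 1 lower against control. Over all genes, 6.22% against MPTP and 7.12% against control had such a p in either direction. Its immediate early genes summed to 25.8 to 32.9 FPKM, against 50.4 or more in every other mouse of the experiment. Their part in the values of this group was not tested. Thbs4 was the 1 member whose groups did not overlap in each comparison of the group given irisin first, where 14.2% of all genes against MPTP and 13.6% against control did not overlap. Delayed mice had 1.06, 0.593 and 0.532 CPM in controls and 1.71, 1.20 and 1.08 with irisin alone, again without overlap. The MPTP mice had 1.56, 1.45 and 0.774, and the mice given MPTP then irisin had 0.804, 0.588 and 1.77, which overlapped. The 95% intervals of the log2 fold changes against control were wide, from -0.07 to 2.52 for irisin before MPTP and from -0.13 to 1.88 for irisin alone.

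Thbs2 and Thbs3 lay between these extremes. Thbs2, which like Thbs1 is a trimer that restrains vessel growth, had 9.46 to 15.3 CPM in the pre-treatment mice and 12.5 to 19.6 in the delayed mice, and its groups overlapped in all 6 comparisons. Thbs3, a pentamer like Thbs4, had 5.96, 5.49 and 5.89 CPM in delayed controls, 5.87, 5.81 and 5.18 with irisin alone, 6.27, 5.32 and 5.83 with MPTP, and 5.22, 4.49 and 3.52 with MPTP then irisin. All 3 mice given MPTP then irisin lay below every mouse given MPTP.

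That difference in Thbs3 was a log2 fold change of -0.40 (SE 0.149, edgeR adjusted p = 0.9995) and did not pass. Over the 12 alternatives its adjusted p was 0.792 or higher. Thbs3 in the pre-treatment experiment had 7.02, 7.82 and 6.43 CPM in MPTP mice and 8.70, 7.10 and 8.97 in mice given irisin first, which overlapped, with the group given irisin the higher in the mean.

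**Figure D4:**
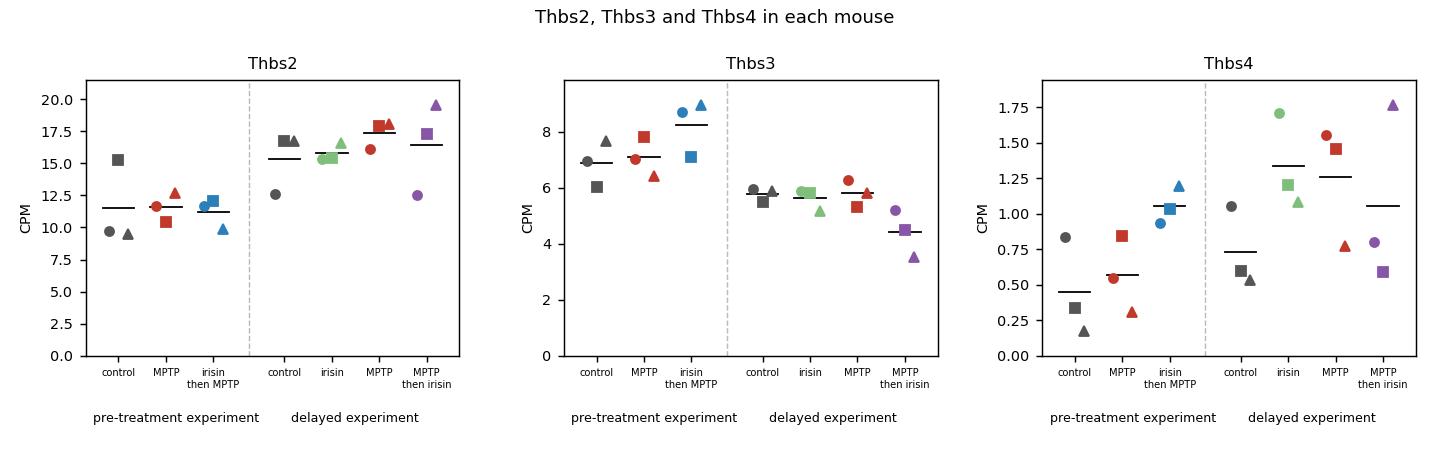
CPM of Thbs2, Thbs3 and Thbs4 in each mouse of the 7 groups, on axes that start at 0. Circles, squares and triangles are mice 1, 2 and 3, and bars are group means. Thbs3 lay between 3.52 and 5.22 CPM with MPTP then irisin, below the 5.32 to 6.27 of MPTP mice, and Thbs4 stayed under 1.8 CPM in every mouse.

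The third question is what irisin does alone and when given after MPTP. With irisin alone against control, 0 of 9 members passed the adjusted threshold, where 0.109% of all genes did, 0 passed the unadjusted one, where 8.97% did, and 0 passed by DESeq2. Log2 fold changes ran from -0.08 for Sparc to 1.16 for Thbs1, whose 95% interval ran from -0.27 to 2.59. For Tnc the interval ran from -0.08 to 2.04. Both intervals, and the place of Thbs1 and Tnc among the members not passing, rest in part on the spread that chose these genes, as above. The groups of Thbs4 and Sparc, 2 of 9 members, did not overlap, against 15.1% of all genes.

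For MPTP then irisin against MPTP, 0 of the 7 members that had no part in the choice passed the adjusted threshold, where 0.00456% of all genes did, and 0 passed by DESeq2. The 1 of the 7 under the unadjusted threshold was Thbs3, beside 3.9% of all genes. Of the 7, it was also the 1 whose groups did not overlap, against 10.7% of all genes. The means of Thbs1 and Tnc were 25.1 and 14.95 CPM with MPTP then irisin and 5.33 and 4.60 with MPTP. Without mouse 3 of that group the fitted log2 difference of Tnc was 0.97, against 1.70 with all mice, and without mouse 2 that of Thbs1 was 1.60, against 2.24.

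Whether the effect of irisin with MPTP differed from its effect without MPTP was tested as an interaction. In the interaction of MPTP and irisin, 0 of the 7 members passed the adjusted threshold and 0 the unadjusted one, where 0.0411% and 5.57% of all genes did, and 0 passed by DESeq2. For Sparc the interaction was 0.09 on the log2 scale, with a 95% interval from -0.03 to 0.22, and for Tnr it was -0.21, from -0.52 to 0.10.

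**Figure D5:**
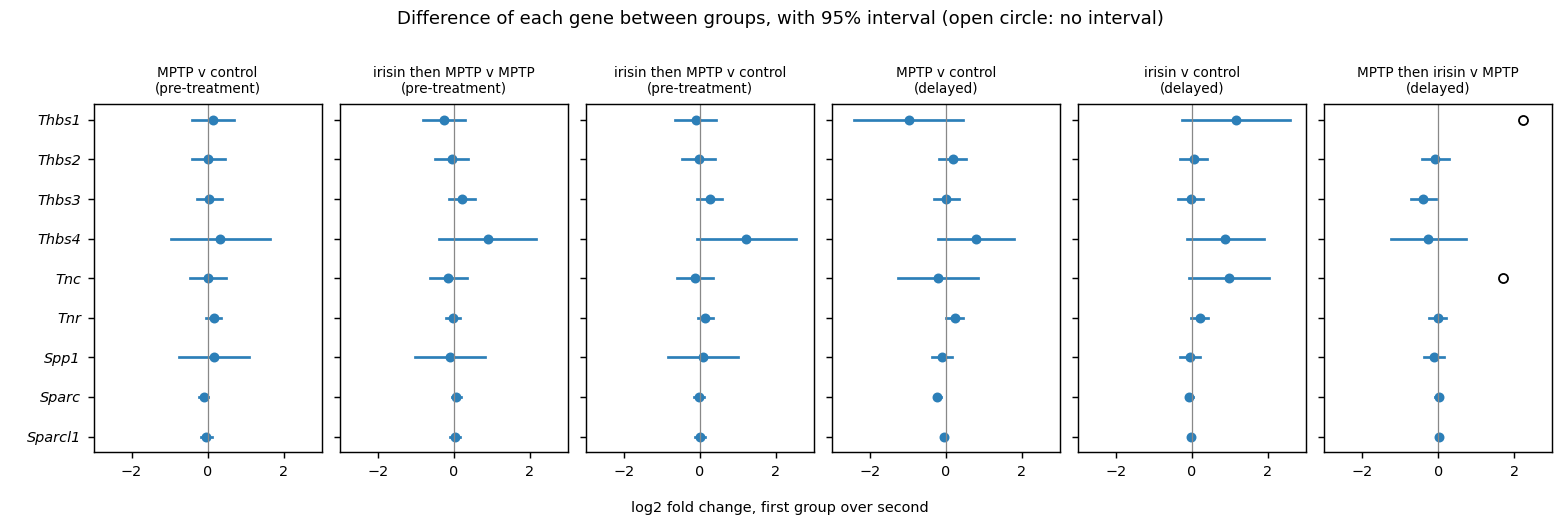
Log2 fold change of each of the 9 genes in the 6 comparisons of 2 groups, as points with 95% intervals from the edgeR fit. Open circles mark Thbs1 and Tnc in the comparison with mice given MPTP then irisin, drawn without an interval. Their intervals in the other delayed comparisons use a spread shared with those mice, which chose them. The intervals for Sparc (-0.32 to -0.14) and Tnr (0.01 to 0.45) with MPTP in the delayed experiment, and for Thbs3 (-0.73 to -0.07) with MPTP then irisin, leave out 0.

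Relatives, receptors and net partners of the members were counted in the same fits. None of the 17 relatives, 21 receptors and 7 lecticans and link proteins passed an adjusted p of 0.05 in any of the 7 comparisons by edgeR. By DESeq2, Ccn1 passed in 3 comparisons, Sdc4 in 1 and Cd36 in 1, and no other gene of these lists did. At an unadjusted p of 0.05, 1 relative was higher and 0 lower for MPTP against control in the pre-treatment experiment (6.03% of all genes in either direction) and 1 was higher and 1 lower in the delayed one (8.33%), with medians of 0.08 and 0.05. Ccn1 had the smallest unadjusted p of the relatives in 5 of the 7 comparisons. In the pre-treatment experiment it had 2.62, 5.99 and 6.74 CPM in controls, 19.5, 19.3 and 10.4 in MPTP mice, and 3.01, 2.90 and 2.42 in mice given irisin first. The MPTP mice lay above all others. Its log2 fold change was 1.68 (SE 0.361, edgeR adjusted p = 0.576) for MPTP against control and -2.56 (SE 0.373, edgeR adjusted p = 0.0695) for irisin before MPTP against MPTP.

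In the delayed experiment all 3 MPTP mice had less Ccn1 than any control. The log2 fold change was -2.34 (SE 0.451, edgeR adjusted p = 0.127) for MPTP against control and 1.60 (SE 0.443, edgeR adjusted p = 0.9995) for MPTP then irisin against MPTP. Immediate early genes were counted in the same comparisons: 12 of the 14 were lower at an unadjusted p of 0.05 for irisin before MPTP against MPTP, 6 of them past the adjusted threshold, with a median log2 fold change of -1.24. For MPTP against control in the pre-treatment experiment 4 were higher and 1 lower, with Klf4 past the adjusted threshold. For MPTP against control in the delayed experiment 8 of 14 were lower and 1 higher at the unadjusted threshold, 2 of them, Btg2 and Apold1, past the adjusted one. For MPTP then irisin against MPTP 6 were higher and 1 lower, 0 past the adjusted threshold, with a median of 0.52. In these 4 comparisons, in the order given, 6.22%, 6.03%, 8.33% and 3.9% of all genes passed the unadjusted threshold. The adjusted one was passed by 0.0707%, 0.0221%, 0.132% and 0.00456%. The part of the immediate early genes in the Ccn1 values was not tested.

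Receptors of thrombospondins, tenascins and osteopontin were counted next. Cd36, the scavenger receptor that binds Thbs1, had mean CPM of 2.68 ± 0.942 in delayed controls, 6.56 ± 2.08 with irisin alone, 6.32 ± 2.80 with MPTP and 3.34 ± 1.40 with MPTP then irisin (SD, n = 3 each). Its interaction of MPTP and irisin was -2.21 on the log2 scale (SE 0.583, edgeR adjusted p = 0.668). For irisin before MPTP against control, Cd44, the osteopontin and hyaluronan receptor, had a log2 fold change of -0.74 (SE 0.286, edgeR adjusted p = 0.648), and Sdc4, a syndecan that binds tenascin-C, had one of 0.34 (SE 0.0728, edgeR adjusted p = 0.277). Sdc4 ran from 73.1 to 84.6 CPM in controls and from 98.1 to 103.0 in the mice given irisin first, without overlap. The lower blood and mural sums and the higher endothelial sum of the mice given irisin first, above, hold for this comparison too. Over the 21 receptors, 3 were higher and 0 lower at the unadjusted threshold for MPTP against control in the pre-treatment experiment, beside 6.03% of all genes in either direction. In the delayed experiment 2 were higher and 0 lower, beside 8.33% of all genes. The medians were 0.09 and 0.05. Summed FPKM of the 21 receptors ran from 158 to 161 in pre-treatment controls and from 171 to 180 in MPTP mice, without overlap. In the delayed experiment it ran from 176 to 184 in controls and from 190 to 193 in MPTP mice, also without overlap. These sums were not tested.

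Among net components, Ncan (neurocan) was the 1 of 7 under the unadjusted threshold, for irisin before MPTP against MPTP (log2 fold change -0.33, SE 0.116, edgeR adjusted p = 0.695) and against control (-0.38, SE 0.116, edgeR adjusted p = 0.536). Over all genes, 6.22% and 7.12% were under it in these 2 comparisons. Mice given irisin before MPTP had 61.8 to 71.1 CPM of Ncan, MPTP mice 70.6 to 87.2 and controls 74.5 to 94.3. Both comparisons share the mice given irisin.

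Genes whose within-group deviations were most like those of a member were sought over the 12 delayed mice, as a description. For Thbs1 these were Msn, Gm5526, Gm6170, Shld2 and Gm15201, with r from 0.939 to 0.964, and over the 9 pre-treatment mice their r with Thbs1 ran from -0.884 to 0.786. For Tnc they were Prmt5, Gm3636, Rbm19, Det1 and 1700029I15Rik, with r from 0.904 to 0.935 there and from -0.447 to 0.195 before, so neither set recurred as a whole. For Tnr the 3 closest genes were Macf1, Ksr2 and Wdfy3, with r of 0.974, 0.974 and 0.969 and, over the pre-treatment mice, 0.640, 0.879 and 0.834. All are long genes: Tnr spans 407961 bases, Ksr2 361004, Macf1 334728 and Wdfy3 236966, beside a median of 17403 over protein-coding genes.

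Among the members themselves, Thbs2 and Thbs3 deviated in opposite directions in both sets of mice, with r of -0.813 over 9 mice and -0.800 over 12. Tnr and Sparcl1 deviated together, with r of 0.717 and 0.607. Of the 36 pairs these were the 2 with r over 0.6 in size and of one sign in both sets. Such r were common among other genes. Over 15690 genes compared in the pre-treatment mice, the 95th percentile of r was 0.720 with Tnr and 0.721 with Sparcl1, above the 0.717 of this pair. The 5th percentile was -0.731 with Thbs2 and -0.626 with Thbs3, beside the -0.813 of that pair. The points share their library, so anything that differs between dissected pieces, such as choroid plexus RNA, enters both genes of a pair.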

How the data were processed

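Members and gene lists were chosen with earlier results of these data known. Midbrain RNA of 21 mice was sequenced, and 2 tables were deposited, 1 per experiment. Per the submitters' processing notes the authors used HISAT, StringTie and edgeR with build mm9. The coordinates in the files equal those of GENCODE M21 (GRCm38) for 91.9% and 94.2% of genes, so GRCm38 is used here. Versions and strand use are not given in the sources used here. The deposited values are raw gene counts and FPKM, where FPKM divides fragments by gene length and library size. Columns of values left unmapped numbered 0. One gene of the marker lists is not reported here.

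Counts were filtered (filterByExpr, minimum count 10, minimum total 15), scaled by TMM and tested with edgeR 4.0.16 (quasi-likelihood, two-sided, R 4.3.3), all groups of an experiment in one fit and the experiments apart. P-values were adjusted by Benjamini-Hochberg over 22641 and 21922 genes, and 0.05 was the threshold. For single values, an exact permutation test of 3 against 3 mice cannot go below p = 0.1. The labels do not say more of the mice than that they are separate samples. Fold change, SE and p of a member are given where its unadjusted p was under 0.05, and of list genes for up to 4 with the smallest p. Likeness was Pearson's r of within-group deviations of log2 CPM (prior count 2) among genes with mean CPM over 1.

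Alternatives were no filter, median ratio size factors, DESeq2 1.42.0, only the 2 compared groups, a replicate block, limma 3.58.1 on log2(FPKM + 1) and leaving out each mouse. Mice that share a replicate number are different animals. Scripts were tested on simulated data. All 21 pairs of libraries within a group differed by more than sampling noise.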

Additional observations from a re-analysis of the deposited data

Results flagged for a closer look

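Ccn1, the matricellular relative measured beside the members, differed in opposite directions in the 2 experiments without overlap between mice. The ratio of group mean CPM for MPTP over control was 3.20 in the pre-treatment experiment, with every MPTP mouse above every control, and 0.197 in the delayed one, with every MPTP mouse below every control. For irisin together with MPTP over MPTP the ratio was 0.170 when irisin came before MPTP and 3.03 when it came after, again with no overlap. Of the 14 immediate early genes, 2 met the same condition in both contrasts, Apold1 and Klf2, which were named after their values were seen, and 8 met it for irisin together with MPTP over MPTP. The share of all genes that met it was not counted. Groups did not overlap, in either direction, for 11.6% and 16.2% of all genes for MPTP against control in the first and second experiment. For irisin with MPTP against MPTP the shares were 14.2% and 10.7%. For Apold1, a gene induced in vessels, the ratios of MPTP over control were 2.61 in the first experiment and 0.169 in the second, and those of irisin with MPTP over MPTP were 0.104 and 3.44. For Klf2, a transcription factor that responds to blood flow, they were 2.10 and 0.689, then 0.211 and 1.27. The difference between experiments was not tested for these 3 genes, and the order and timing of the treatments differ between the experiments. No member of the set met this condition, and groups of 3 mice are too small for a test of single outlying mice.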

How the results depend on the processing

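No member passed the adjusted threshold in any comparison under any alternative, except that DESeq2 called 1 member, Sparc, for MPTP against control in the delayed experiment. Of the 755 refitted log2 fold changes of named genes, 0 reversed and 1 untested value moved by more than the spread between mice, 18 passed the threshold where the reported fit did not, and 51 no longer did, all of immediate early genes.

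Counts over all genes depended more on the tool. In the order MPTP against control, irisin before MPTP against MPTP and irisin before MPTP against control, then in the delayed experiment MPTP against control, irisin alone against control, MPTP then irisin against MPTP and the interaction, the edgeR fit called 5, 16, 16, 29, 24, 1 and 9 genes. DESeq2 called 91, 168, 191, 179, 140, 32 and 62. With the replicate block the counts were 2, 8, 2, 17, 14, 1 and 7. Without the filter, 9 were called for irisin before MPTP against control and 2 for MPTP then irisin against MPTP. With only the compared groups, 10, 10, 14 and 9 were called for MPTP against control in each experiment, irisin alone and MPTP then irisin. With limma on log2(FPKM + 1), 6, 16 and 3 were called for irisin before MPTP against control, delayed MPTP against control and the interaction. Leaving out 1 mouse gave 7 to 17, 10 to 26, 5 to 20, 16 to 35, 16 to 29, 1 to 7 and 7 to 19.

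Mice with the same replicate number did not deviate together over all tested genes (r from -0.0776 to 0.101 over 9 pairs and from -0.0765 to 0.0387 over 18). The labels do not say whether such mice shared a dissection or a batch, and this check cannot settle it. Spp1 had the same order by number in pre-treatment controls and MPTP mice, but not in mice given irisin first. With the block, Sparc had a log2 fold change of -0.23 with an adjusted p of 0.256, and no member passed.

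Leaving out 1 mouse moved Sparc for delayed MPTP against control between -0.26 and -0.20 and Tnr between 0.16 and 0.28, the lowest without control 1. By Spearman correlation, 3 of the 5 genes named for Thbs1, 3 of 5 for Tnc and 0 of 3 for Tnr stayed among the closest. By TMM CPM per kilobase all 9 members kept their place in both experiments. At 12 counts, Thbs4 is limited by depth.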
